A study of Mus musculus with 10 samples.

Results

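Cytosolic ribosomal protein genes encode the protein parts of the ribosome that translates messenger RNA in the cytoplasm. They were taken as the protein-coding genes whose symbol begins with Rpl or Rps and a digit, together with Rplp0, Rplp1, Rplp2 and Rpsa, leaving out the Rps6k kinases and symbols containing -ps. This gave 86 of the 53379 genes in the count files: 43 of the large subunit, 31 of the small subunit, the 3 genes of the stalk, which recruits elongation factors to the ribosome, and 9 paralogs or other proteins with a similar symbol. The core proteins are made in near-equal numbers and are assembled with ribosomal RNA in the nucleolus. Many of their messages begin with a 5′ terminal oligopyrimidine (TOP) tract, a C followed by further C or T bases, through which the mTOR pathway and the protein LARP1 control their translation. In neurons, ribosomes also lie in dendrites, and new protein synthesis is needed for lasting memory.

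The study asked whether ventral hippocampal cells active during experiences of opposite valence differ in their RNA. Male C57BL/6 mice carried a viral tag in which the c-Fos promoter drove tTA, and tTA, in the absence of doxycycline, drove ChR2-EYFP, so that cells active in the tagging window became EYFP positive. The microdissected hippocampal regions were dissociated, EYFP cells were sorted, and RNA was amplified with SMART-Seq v4 chemistry and sequenced. The study calls the sorted material nuclei in its results and a cell suspension in its methods, so which of them was sequenced is uncertain; it is called cells here. Aversive mice (2 libraries, numbered 1 and 3) received 4 foot shocks of 2 s at 1.5 mA, and appetitive mice (2 libraries) were exposed to a female for 1 h. The 1 h is that of the labels, and the study's methods give a longer exposure. Neutral mice (3 libraries) were placed in the conditioning cage with neither stimulus, and mock mice (3 libraries) were males of the home cage. Per the labels the mice were 5 weeks old and 8 were pooled per condition. The study's methods also call mock an untagged control made from fewer mice, so whether mock cells carried the tag is uncertain. Whether libraries within a group were made from different pools is not stated. P-values therefore measure the spread between libraries, which may be technical. Per the labels, the neutral libraries alone were made from total RNA with another version of the kit and read on another sequencer as pairs of 100 bp, and the others were made from polyA RNA and read as single ends of 40 bp; the leading 40 bp of all were aligned. Kit, RNA, sequencer and neutral group therefore cannot be told apart. Total counts were 29194873, 20505550 and 49880042 in mock, 60077131, 67650693 and 62741023 in neutral, 27159427 and 39172609 in aversive and 26647573 and 16968588 in appetitive cells. Levels are CPM, counts scaled to a common library total after TMM normalization, and are listed in the order of the library numbers. The TMM factor was lowest in appetitive 1 (0.480) and highest in mock 3 (1.45), so an order of libraries by level can differ from that by unscaled CPM, which are relative to the library total without this factor.

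Before the ribosomal protein genes were compared, the libraries were set beside markers of the cells the sort could hold, and they stood apart within groups. The myelin gene Mbp took 22.8, 20.4 and 3.37% of all counts in mock, 1.84, 0.981 and 0.601% in neutral, 23.7 and 1.09% in aversive and 30.8 and 0.983% in appetitive cells. Summed over 10 oligodendrocyte markers, the level was 367100, 295600 and 51740 in mock, 24130, 36960 and 7560 in neutral, 411600 and 26870 in aversive and 806500 and 90710 in appetitive cells, with Mbp the most abundant in the mock libraries, neutral 1, neutral 3, aversive 1 and appetitive 1. Mock 1, mock 2, aversive 1 and appetitive 1 were therefore the richest in oligodendrocyte RNA, and the other library of the aversive and of the appetitive group held far less. The 17 neuron markers summed to 540.4, 316 and 363 in mock, 295, 181 and 203 in neutral, 1036 and 824 in aversive and 1318 and 279 in appetitive cells, with Snap25, Map2, Nrgn or Eno2 the most abundant. Rbfox3, which marks neuronal nuclei, had 177, 58 and 384 raw counts in mock and 34, 15 and 411 in neutral. It had 700 and 797 in aversive and 15 and 2 in appetitive. Slc17a7, the glutamate transporter of excitatory neurons, had 700, 95 and 1943 in mock and 1, 1 and 432 in neutral. In aversive it had 336 and 1283, and in appetitive 9 and 12. Neurod6, another marker of excitatory neurons, was at 0 in both appetitive libraries, as were Gad1, Gad2 and Nefm. Gad2 was also at 0 in aversive 1, neutral 1 and neutral 2, and Gad1 in neutral 1 and neutral 3. In each appetitive library 8 of the 17 markers reached 1 CPM. Appetitive 1 nevertheless had the highest sum on this scale, with Snap25 at 577 CPM; as a share of all counts the markers took 0.0632% there and 0.105% in aversive 3, the highest. The choroid plexus gene Ttr took 13.6, 2.65 and 11.6% of counts in neutral, and in the other groups its share was under that of every neutral library, at 0.0917, 0.1004 and 0.458% in mock, 0.971 and 0.865% in aversive and 0.0407 and 0.326% in appetitive. Microglial markers (12 genes) summed to 1765, 2563 and 10930 in mock, 45.1, 444 and 320.1 in neutral, 7349 and 2766 in aversive and 4438 and 1164 in appetitive cells. The 11 astrocyte markers summed to 16350, 7382 and 5253 in mock, 468, 489 and 484 in neutral, 7051 and 7697 in aversive and 7399 and 3565 in appetitive cells. Both lists were lower in every neutral library than in any other library. So were the 5 red blood cell markers, at 2.21, 59.7 and 11.4 in neutral and 98.6 (appetitive 2) or more elsewhere. In neutral the 9 endothelial markers summed to 178.5, 4999 and 2390. The 10 mural and fibroblast markers summed to 589, 5903 and 2485 there, and to 1122 (aversive 3) or less in the other groups. The part of these cell types in the levels of ribosomal protein genes was not tested, and fewer cells of a type cannot be told apart from less RNA per cell.

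The ribosomal protein genes took a small share of the counts in every library. The 86 genes together held 0.198, 0.227 and 0.162% in mock, 0.199, 0.155 and 0.1902% in neutral, 0.249 and 0.342% in aversive and 0.272 and 0.217% in appetitive cells, out of all counts. The means were 0.196% ± 0.0323 in mock, 0.181% ± 0.0237 in neutral, 0.295% ± 0.0658 in aversive and 0.244% ± 0.0391 in appetitive cells (SD; n = 3 for mock and neutral, n = 2 for the others). Both aversive libraries lay above every mock and neutral library, both appetitive libraries lay above every neutral library, and appetitive 2 lay under mock 2. With the 20 most abundant genes of each library taken out of the total, the shares were 0.3597, 0.3804 and 0.1902% in mock, 0.292, 0.181 and 0.247% in neutral, 0.466 and 0.448% in aversive and 0.639 and 0.266% in appetitive cells. Aversive then still lay above mock and neutral without overlap, whereas appetitive 2 lay within the neutral range and appetitive 1 was the highest of all 10 libraries. Of all counts, the large subunit genes took 0.0839, 0.0944 and 0.0684% in mock, 0.0905, 0.0689 and 0.0762% in neutral, 0.102 and 0.148% in aversive and 0.111 and 0.0704% in appetitive cells. For the small subunit genes the shares were 0.0942, 0.103 and 0.0689% in mock, 0.0723, 0.0559 and 0.06802% in neutral, 0.116 and 0.138% in aversive and 0.127 and 0.0948% in appetitive cells. The small subunit thus took less than the large subunit in every neutral library and more than it in every mock and appetitive library. Annotated ribosomal protein pseudogenes, 296 in all, took between 0.00187% and 0.0142% of counts.

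**Figure D1:**
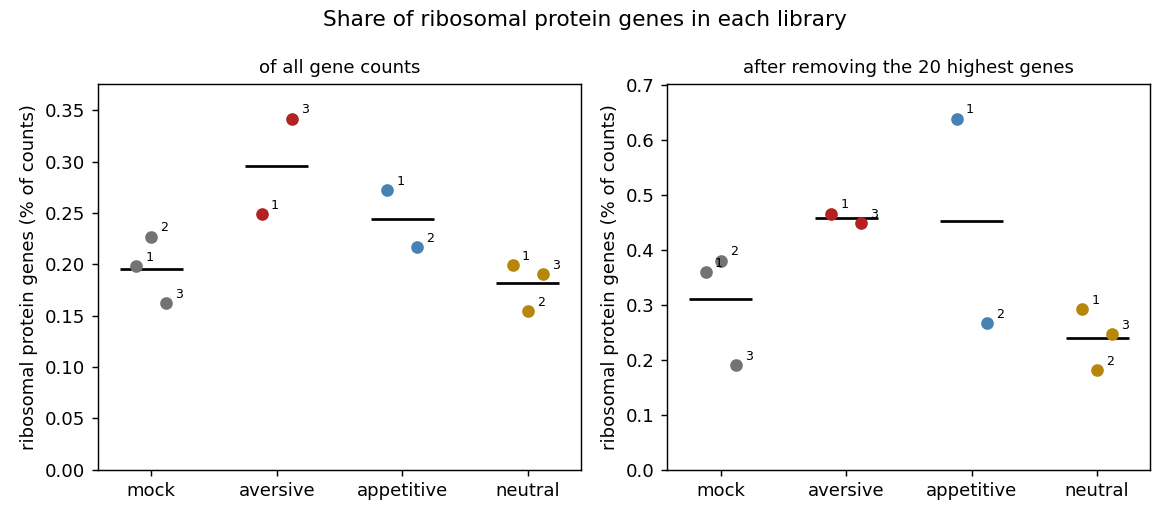
Share of the 86 ribosomal protein genes in each library, as percent of all gene counts (left) and after removing each library's 20 highest genes (right); points are libraries with their number, lines are group means. The aversive libraries, at 0.249% and 0.342% of all counts, lie above the mock and neutral libraries in both panels, and the appetitive libraries lie far apart in the right panel, at 0.639% and 0.266%.

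Detection of the core genes was nearly complete while many other genes were missed. Of the 77 core genes, those of the subunits and the stalk, none was at 0 in a mock or neutral library. Rps23 was at 0 in aversive 1, Rpl23a and Rpl24 in aversive 3, Rpl27 and Rps27 in appetitive 1, and Rpl10, Rpl24 and Rps16 in appetitive 2. Among all 19754 genes tested, those at 0 made up 5.75, 10.2 and 0.557% in mock, 19.6, 18.4 and 14.3% in neutral, 26.3 and 13.3% in aversive and 37.1 and 35.9% in appetitive cells. These genes were not matched to the core genes by level, so the difference is not read as a trait of the family. At a count of 0 the depth allowed a level of up to 0.157 CPM in appetitive 2 and 0.235 CPM in appetitive 1 (3 counts, counting error only). Some of these zeros fell on genes held well above that floor in other libraries. Rpl10, at 0 in appetitive 2, had 7.51 CPM in appetitive 1. Others fell on genes that were also low elsewhere, such as Rpl24, with a raw count of 1 in appetitive 1 and in neutral 1. Scatter within a group was widest in appetitive, where 36 of 85 tested members (42.4%) differed over 4-fold between the libraries (with 0.5 CPM added). In aversive 11 of 85 did so (12.9%), in neutral 8 of 85 (9.41%) and in mock 4 of 85 (4.71%). Of the 17413 tested genes within the members' range of mean levels, 35.6% did so in appetitive, 39.2% in aversive, 35.3% in neutral and 15.7% in mock. The median log2 range was wider over the members than over these genes in mock (1.13 and 1.03) and appetitive (1.84 and 0.81), and narrower in aversive (0.60 and 1.36) and neutral (1.15 and 1.41). Ranked over the 85 members, Spearman's rho between libraries of a group was 0.92 (mock 1 and 2), 0.90 (mock 1 and 3) and 0.97 (mock 2 and 3). It was 0.80 between the aversive libraries, 0.76 between the appetitive libraries, and 0.87, 0.92 and 0.92 among the neutral libraries. Aversive 1 was closer to mock 2 (rho = 0.95) than to aversive 3. These values are across genes, which are not independent replicates.

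Levels differed widely among genes whose products are used in near-equal numbers. Per kilobase of annotated exon and averaged over the 10 libraries, the highest were Rplp1, an acidic stalk protein (168 CPM per kb), Rpl4 (112) and Rps15 (89.7). The order differed by group. In neutral, Rps27l (99.46) and Rps15 (80.25) lay above Rpl4 (74.51) and Rplp1 (74.38). In mock, Rps15 (48.62) lay under Rpl8 (80.88) and Rps3 (64.08). The lowest core genes over the 10 libraries were Rpl24 (0.555), Rpl5 (0.595) and Rpl17 (0.598). Here too the order differed by group: Rpl24 had 0.038 in appetitive but 0.643 in mock, above Rpl12 (0.399) and Rpl11 (0.501) there. Exon length here is the union over annotated transcripts, which for genes with long minor transcripts is longer than the main message. Rpl4 (ENSMUSG00000032399, GRCm38 chr9:64173375-64178666, plus strand) had 266, 241 and 130.2 in mock, 145, 175 and 129 in neutral, 258 and 175 in aversive and 549 and 182 in appetitive cells. Rps15 had 39.5, 36.8 and 15.6 in mock, 71.97, 29.7 and 50.04 in neutral, 62.9 and 94.7 in aversive and 117 and 47.1 in appetitive cells. Rpl24, a protein of the face where the subunits meet, had a raw count of 11, 21 and 33 in mock, 1, 94 and 105 in neutral, 24 and 0 in aversive and 1 and 0 in appetitive cells. Rpl17 had a raw count of 9, 8 and 37 in mock, 197, 6 and 1 in neutral, 1 and 113 in aversive and 6 and 13 in appetitive cells. Both were measured from few reads in most libraries. Ribosomal protein genes have many processed copies. Of all 40-base stretches in the core genes' transcripts a median of 21.8% (up to 88.7%, in Rpl36) also occurred in an annotated transcript of another locus, against 0.0504% over the tested genes. How reads with several matches were counted is not stated, so levels of genes with a high share are uncertain. Across the 77 core genes, the shared percentage and the level per kilobase had a Spearman rho of -0.18, a description across genes. Rps3 and Rpl8, with 2.00% and 5.52% shared, were among the highest, and Rplp1, with 67.0% shared, was higher still. Many of these genes also host small nucleolar RNA genes in their introns, and counting ignored strand, so reads of overlapping genes were not told apart.

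**Figure D2:**
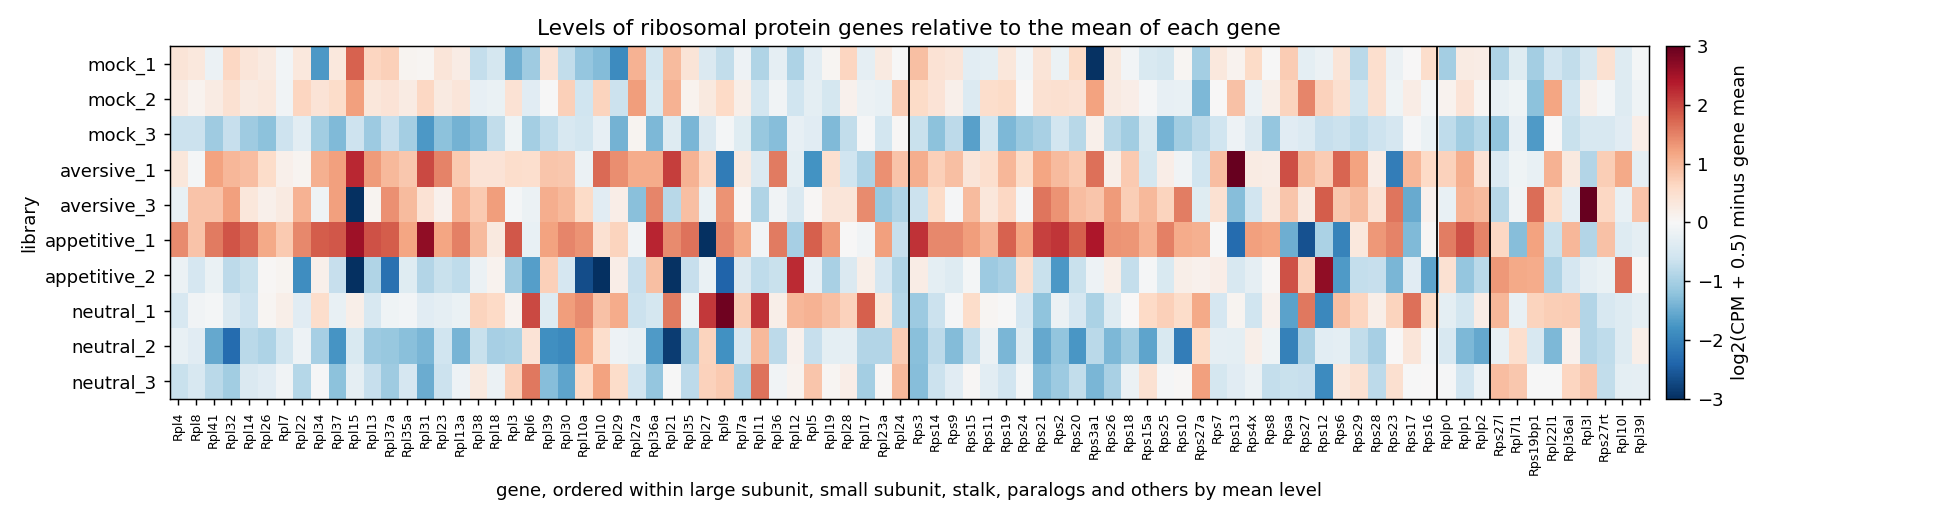
Levels of ribosomal protein genes in each library as log2(CPM + 0.5) minus the gene's mean over the 10 libraries; rows are libraries, columns are genes grouped by role and ordered by mean level within a role. On this TMM scale, appetitive 1 is the row with the most values above the gene means, mock 3 and neutral 2 have most values below them, and scattered dark cells mark genes such as Rpl15, Rpl27 and Rps12 that differ strongly between libraries of a group.

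The fold changes that follow are on the log2 scale, positive where the group named first was higher, with an SE derived from edgeR's F statistic. TMM scaling left the median of all tested genes away from 0 by over 0.1 in 5 comparisons. The members are therefore also given relative to it. Of the 86 genes 85 passed the filter on low counts; Rpl39l did not. The aversive and appetitive comparisons with neutral share the neutral libraries, and those with mock share the mock libraries.

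Aversive cells had higher levels than neutral cells for most ribosomal protein genes under each scaling tried, but no member passed the test. Rps21, a small-subunit protein, had 46.2 and 61.3 CPM in aversive and 8.35, 6.51 and 7.72 in neutral, and Rpl32, of the large subunit, had 77.2 and 90.8 and 28.4, 7.37 and 18.4. Rps3, a small-subunit protein at the entry of the messenger RNA channel, had 462 and 138 in aversive and 101, 90.4 and 89.3 in neutral. For all 3 genes the groups did not overlap. By edgeR's quasi-likelihood test with Benjamini-Hochberg adjustment, 0 of the 85 tested members passed an adjusted p of 0.05, against 0.0405% of all tested genes. At an unadjusted p under 0.05, 3 of them had a higher level (8.28% of all genes) and 0 a lower one (10.8%). With DESeq2's Wald test 4 of 83 members with an adjusted p were called (3 higher, 1 lower: Rpl11, Rpl36a, Rps21 and Rpsa), against 15.7% of all genes with one. Of the 85 members 71 had a positive and 14 a negative log2 fold change, with a median of 0.94 beside -0.15 over all tested genes, a difference of 1.09. With at least 10 counts required in every library, a filter that also removes genes lost in 1 group, the medians were 0.84 over 66 members and -0.02 over all 4661 genes. In 40 members every library of the first group lay above every library of the second (14.4% of all tested genes), and in 6 it lay below (19.3%). In unscaled CPM, an order added after seeing the data, 33 lay above (11.1%) and 7 below (21.8%). In the higher direction the members with the smallest p were Rps21 (log2 fold change 2.83 ± 1.05 (SE), adjusted p = 0.201), Rpl32 (2.22 ± 0.98 (SE), adjusted p = 0.252) and Rps3 (1.68 ± 0.76 (SE), adjusted p = 0.261). In the lower direction they were Rpl11, which with Rpl5 and 5S RNA binds the p53 regulator Mdm2 (log2 fold change -2.64 ± 1.52 (SE), adjusted p = 0.361), the paralog Rps27l (-1.27 ± 0.81 (SE), adjusted p = 0.407) and Rps27a, made as a fusion with ubiquitin (-1.60 ± 1.30 (SE), adjusted p = 0.528). Rpl11 had 1.95 and 1.28 CPM in aversive and 14.4, 6.06 and 9.71 in neutral. The median was 0.87 over the 43 large-subunit genes, 1.07 over the 31 small-subunit genes and 1.04 over the stalk. The median over the members was also positive with DESeq2 size factors (1.06), with library size alone (0.70) and with any single library left out (0.68 to 1.35).

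Appetitive cells also had higher levels than neutral cells for most members with TMM or DESeq2 size factors. With library size alone the members were nearly balanced, with 45 of 85 positive. Without appetitive 1 the median was negative. Rps3 had 972 and 252 CPM in appetitive and 101, 90.4 and 89.3 in neutral. Appetitive 1 was the higher of the appetitive libraries, and both lay above neutral. By edgeR's quasi-likelihood test with Benjamini-Hochberg adjustment, 0 of the 85 tested members passed an adjusted p of 0.05, against 6.17% of all tested genes. At an unadjusted p under 0.05, 7 of them had a higher level (7.46% of all genes) and 0 a lower one (21.8%). Of these 7, 6 were core genes and the other was the paralog Rpl10l. With DESeq2's Wald test 10 of 83 members with an adjusted p were called (9 higher, 1 lower, among them Rpl31, Rpl36a, Rpl39, Rps12, Rps21, Rps3, Rps6 and Rpsa), against 28.0% of all genes with one. Of the 85 members 64 had a positive and 21 a negative log2 fold change, with a median of 1.01 beside -0.91 over all tested genes, a difference of 1.92. With that stricter filter the medians were 0.49 over 66 members and 0.04 over all 4661 genes. In 15 members every library of the first group lay above every library of the second (11.4% of all tested genes), and in 7 it lay below (27.2%). In unscaled CPM, an order added after seeing the data, 11 lay above (6.37%) and 15 below (31.3%). Among the members with the smallest p in the higher direction was Rps3 (log2 fold change 2.71 ± 0.77 (SE), adjusted p = 0.0596). In the lower direction the smallest p-values were those of Rps6, the substrate of the S6 kinases that is widely used as a marker of neuronal activity in its phosphorylated form (log2 fold change -3.35 ± 1.69 (SE), adjusted p = 0.205), Rpl6 (-2.33 ± 1.26 (SE), adjusted p = 0.229) and Rpl11 (-2.29 ± 1.50 (SE), adjusted p = 0.308). Rpl6 had 7.66 and 2.51 CPM in appetitive and 36.8, 12.02 and 27.9 in neutral. Without appetitive 1 the median was -0.29, with 35 members positive, beside -1.96 over all tested genes. Without appetitive 2 it was 1.30, with 64 members positive, beside -3.42 over all tested genes. Of the genes tested in the main fit, 37.1% were at 0 in appetitive 1 and 35.9% in appetitive 2. Of the core genes 2.6% and 3.9% were. The medians over all tested genes in these fits therefore cover many genes with no reads in appetitive cells. Of the members Rps3 alone was called without aversive 1 (2621.0 of 23801.0 genes called) and also without aversive 3 (2661.0 of 21939.0), libraries that are not part of this comparison but share its model. The median was 1.31 with DESeq2 size factors and 0.11 with library size alone (45 positive). Over the libraries in which Mbp took at most 20% of counts, appetitive 2 with the neutral libraries, it was -0.09 (38 positive). This subset was chosen after seeing the data.

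Appetitive and aversive cells, made with the same kit, had no common direction over the ribosomal protein genes. Rps6 had 0.235 and 0.419 CPM in appetitive (3 and 8 counts) and 9.46 and 4.73 in aversive, with no overlap. Rps13, of the small subunit, had 0.0782 and 1.57 in appetitive and 38.9 and 0.681 in aversive, so that aversive 1 alone stood high. By edgeR's quasi-likelihood test with Benjamini-Hochberg adjustment, 0 of the 85 tested members passed an adjusted p of 0.05, against 1.8% of all tested genes. At an unadjusted p under 0.05, 0 of them had a higher level (4.12% of all genes) and 1 a lower one (15.8%). With DESeq2's Wald test 2 of 81 members with an adjusted p were called (0 higher, 2 lower: Rps13 and Rps6), against 24.0% of all genes with one. Of the 85 members 45 had a positive and 40 a negative log2 fold change, with a median of 0.06 beside -0.48 over all tested genes, a difference of 0.54. With that stricter filter the medians were -0.39 over 66 members and -0.00445 over all 4661 genes. In 2 members every library of the first group lay above every library of the second (8.34% of all tested genes), and in 7 it lay below (20.1%). In unscaled CPM, an order added after seeing the data, 4 lay above (5.29%) and 17 below (22.2%). In the lower direction the smallest p-values were those of Rps6 (log2 fold change -4.42 ± 1.84 (SE), adjusted p = 0.221) and Rps13 (-4.57 ± 2.18 (SE), adjusted p = 0.268), followed by the paralog Rpl3l. In the higher direction they were those of Rps27l (log2 fold change 1.62 ± 0.87 (SE), adjusted p = 0.323), Rps3 (1.03 ± 0.85 (SE), adjusted p = 0.581) and Rpl12 (2.01 ± 1.77 (SE), adjusted p = 0.616), a protein at the base of the stalk with 0.938 and 13.04 CPM in appetitive and 1.85 and 1.62 in aversive. The direction of the median turned with the scaling, at 0.25 with DESeq2 size factors and -0.69 with library size alone (15 positive). Without appetitive 1 it was -1.36 (11 positive), beside -1.41 over all tested genes. It was 0.51 without appetitive 2, -0.12 without mock 1 and -0.12 without mock 2. It was also negative under the stricter filter. No direction is therefore given for the family in this comparison.

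Aversive cells had higher levels than mock cells for nearly all ribosomal protein genes under each scaling tried, again with no member passing the test. Rps19bp1, a nucleolar binding partner of Rps19 and not a ribosomal subunit, had 24.7 and 92.4 CPM in aversive and 14.1, 11.9 and 8.47 in mock, and Rpl29, of the large subunit, had 16.8 and 7.09 and 1.27, 3.698 and 1.96. In both genes the groups did not overlap. By edgeR's quasi-likelihood test with Benjamini-Hochberg adjustment, 0 of the 85 tested members passed an adjusted p of 0.05, against 0.0% of all tested genes. At an unadjusted p under 0.05, 2 of them had a higher level (1.01% of all genes) and 0 a lower one (8.95%). These were Rpl10l and Rps19bp1, so 0 of the 77 core genes had a higher level at this p. With DESeq2's Wald test 0 of 82 members with an adjusted p were called, against 7.95% of all genes with one. Of the 85 members 80 had a positive and 5 a negative log2 fold change, with a median of 0.84 beside -0.13 over all tested genes, a difference of 0.97. Under the stricter filter the medians were 0.73 over 66 members and 0.13 over all 4661 genes. In 40 members every library of the first group lay above every library of the second (11.4% of all tested genes), and in 0 it lay below (24.7%). In unscaled CPM, an order added after seeing the data, 41 lay above (8.18%) and 0 below (24.3%). Among the members with the smallest p were Rps19bp1 (log2 fold change 2.35 ± 0.91 (SE), adjusted p = 0.473) and Rpl29 (2.37 ± 1.25 (SE), adjusted p = 0.523). The paralog Rpl10l also had a small p, from a raw count of 19 and 3 in aversive and 0, 0 and 1 in mock. Its few reads lay mostly in aversive 1 and appetitive 2, through which it passed the filter, so no direction is read from it. Rpl27a (log2 fold change -0.53 ± 1.32 (SE), adjusted p = 0.927), Rpl5 (-0.41 ± 1.70 (SE), adjusted p = 0.958) and Rps4x (-0.18 ± 1.34 (SE), adjusted p = 0.977) led the lower direction, and in each the groups overlapped. The median was 0.94 over the large subunit, 0.77 over the small subunit and 0.84 over the stalk. Over all members it was 0.92 with DESeq2 size factors and 0.84 with library size alone, and it ranged from 0.45 without aversive 1 to 0.99 without mock 2. Over the libraries in which Mbp took at most 20% of counts, aversive 3 and mock 3 in this comparison, it was 1.50; this subset was chosen after seeing the data.

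Appetitive cells had higher levels than mock cells for most members under each scaling tried. Here too the median was negative without appetitive 1. Rps19bp1 had 66.6 and 63.01 CPM in appetitive and 14.1, 11.9 and 8.47 in mock, and Rps27l had 79.1 and 126 and 26.6, 44.01 and 22.4. On this scale both genes lay above mock in both appetitive libraries; in unscaled CPM Rps27l overlapped. The stalk gene Rplp0, which binds Rplp1 and Rplp2 to the large subunit, had 220.1 and 104 and 36.95, 80.99 and 44.3. By edgeR's quasi-likelihood test with Benjamini-Hochberg adjustment, 0 of the 85 tested members passed an adjusted p of 0.05, against 1.98% of all tested genes. At an unadjusted p under 0.05, 4 of them had a higher level (2.79% of all genes) and 0 a lower one (21.0%). Of these 4 only Rplp0 was among the 77 core genes, and the others were Rpl10l, Rps19bp1 and Rps27l. With DESeq2's Wald test 5 of 82 members with an adjusted p were called (4 higher, 1 lower: Rpl36a, Rps19bp1, Rps27a, Rps27l and Rps6), against 25.7% of all genes with one. Of the 85 members 72 had a positive and 13 a negative log2 fold change, with a median of 0.88 beside -1.45 over all tested genes, a difference of 2.34. Under the stricter filter the medians were 0.39 over 66 members and 0.20 over all 4661 genes. In 17 members every library of the first group lay above every library of the second (9.78% of all tested genes), and in 6 it lay below (38.9%). In unscaled CPM, an order added after seeing the data, 12 lay above (5.11%) and 8 below (41.0%). Rps19bp1 (log2 fold change 2.50 ± 0.91 (SE), adjusted p = 0.151) and Rps27l (1.73 ± 0.77 (SE), adjusted p = 0.203) led the higher direction. Rpl10l also had a small p, but its raw count was 0 and 30 in appetitive and 0, 0 and 1 in mock. Its groups overlapped and appetitive 2 alone stood high, so no direction is read from it. Rps6 (log2 fold change -3.08 ± 1.67 (SE), adjusted p = 0.264), Rpl24 and Rps13 (-1.94 ± 1.85 (SE), adjusted p = 0.509) led the lower. For Rplp0 the values were a log2 fold change of 1.58 ± 0.71 (SE) and an adjusted p = 0.207. Without appetitive 1 the median over the members was -0.61, with 24 positive, beside -3.80 over all tested genes. The latter again covers many genes with no reads in appetitive 2. Leaving out any other library gave a median over the members of 0.64 to 1.21. The median was 1.17 with DESeq2 size factors and 0.19 with library size alone (60 positive).

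Neutral and mock cells, which also differ in kit, had members on either side of 0 in near-equal numbers, with the sign of the median turning with the scaling. Rps3 had 101, 90.4 and 89.3 CPM in neutral and 406, 320.1 and 135 in mock, and Rpsa, the small-subunit protein also known as the laminin receptor, had 0.5995, 0.312 and 1.58 and 5.18, 4.74 and 2.14, with neutral the lower in both. Rpl11 had 14.4, 6.06 and 9.71 and 1.27, 1.77 and 1.01, and Rpl6, of the large subunit, had 36.8, 12.02 and 27.9 and 3.98, 6.93 and 4.19. Rps27a had 12.5, 8.37 and 13.5 and 2.43, 1.82 and 2.89, and in all 3 neutral was the higher without overlap. By edgeR's quasi-likelihood test with Benjamini-Hochberg adjustment, 0 of the 85 tested members passed an adjusted p of 0.05, against 0.0861% of all tested genes. At an unadjusted p under 0.05, 1 of them had a higher level (3.72% of all genes) and 1 a lower one (9.73%). With DESeq2's Wald test 2 of 83 members with an adjusted p were called (2 higher, 0 lower: Rpl11 and Rps27a), against 7.64% of all genes with one. Of the 85 members 41 had a positive and 44 a negative log2 fold change, with a median of -0.10 beside 0.08 over all tested genes, a difference of -0.18. Under the stricter filter the medians were -0.25 over 66 members and 0.11 over all 4661 genes. In 10 members every library of the first group lay above every library of the second (16.0% of all tested genes), and in 5 it lay below (15.9%). In unscaled CPM, an order added after seeing the data, 15 lay above (16.5%) and 10 below (13.4%). The smallest p-values were those of Rpl11 (log2 fold change 2.90 ± 1.31 (SE), adjusted p = 0.369), Rpl6 (2.35 ± 1.08 (SE), adjusted p = 0.378) and Rps27a (2.26 ± 1.15 (SE), adjusted p = 0.4404) in the higher direction. In the lower direction they were those of Rps3 (log2 fold change -1.62 ± 0.70 (SE), adjusted p = 0.345), Rps21 (-1.50 ± 0.95 (SE), adjusted p = 0.592) and Rpsa (-2.27 ± 1.48 (SE), adjusted p = 0.609). The median was -0.14 with DESeq2 size factors and 0.07 with library size alone. Without neutral 2 it was 0.04, and without any other single library it was -0.50 to -0.08. Over the libraries in which Mbp took at most 20% of counts (mock 3 with the 3 neutral libraries) it was 0.57, with 67 members positive.

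**Figure D3:**
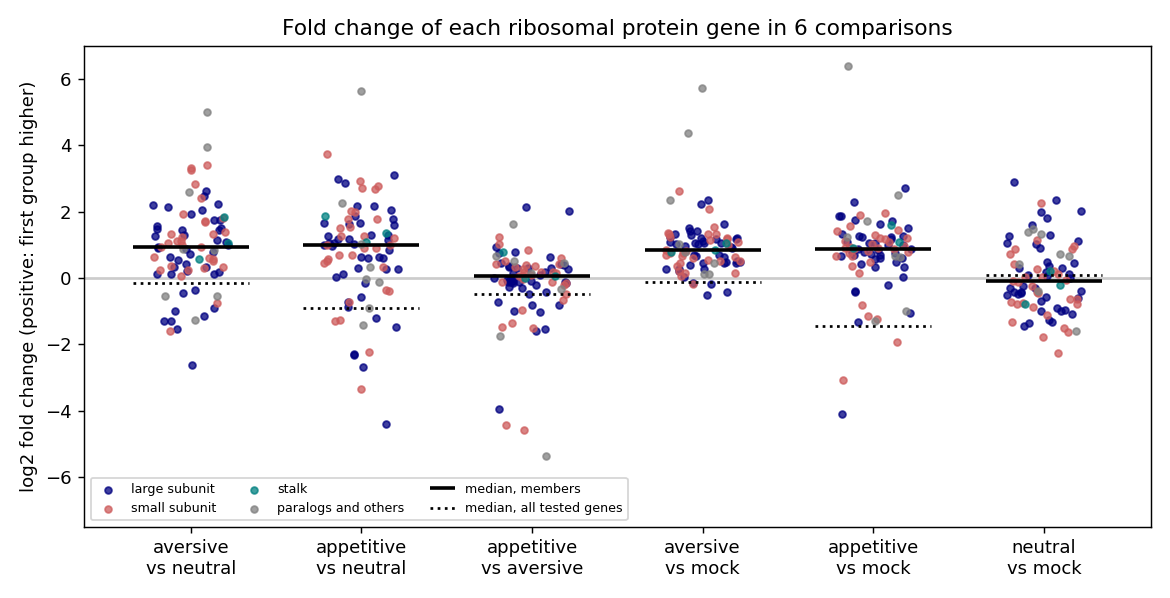
Log2 fold change of each of the 85 tested ribosomal protein genes (points, coloured by role) in the 6 comparisons; solid lines are medians over the members and dotted lines medians over all 19754 tested genes. The member median lies between 0.84 and 1.01 in the comparisons of aversive or appetitive with neutral or mock and near 0 in the others. Without appetitive 1 it was negative in both comparisons of appetitive with the controls. The sign of the member median turned with the scaling in appetitive against aversive and in neutral against mock. No point passed an adjusted p of 0.05 in edgeR's test, and DESeq2's Wald test called 4, 10, 2, 0, 5 and 2 members from left to right.

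On the TMM scale the 3 stalk genes each had their highest level in appetitive 1. Rplp0 (ENSMUSG00000067274) had 36.95, 80.99 and 44.3 in mock, 61.1, 54.3 and 74.1 in neutral, 122 and 64.9 in aversive and 220.1 and 104 in appetitive cells. Rplp1 had 76.05, 85.4 and 30.6 in mock, 43.5, 24.8 and 43.1 in neutral, 138 and 129.7 in aversive and 242 and 28.4 in appetitive cells. Rplp2 had 28.5, 25 and 13.1 in mock, 28.4, 7.97 and 21.5 in neutral, 32.2 and 47.2 in aversive and 69.1 and 13.7 in appetitive cells. In unscaled CPM, Rplp0 was highest in appetitive 2 (117, against 106 in appetitive 1), and Rplp1 and Rplp2 were highest in aversive 3 (165 and 60.2, against 116 and 33.2). The aversive libraries lay above the mock libraries on both scales in Rplp1, on the TMM scale only in Rplp2 and in unscaled CPM only in Rplp0. Rpsa had 12.2 and 5.41 in aversive and 0.704 and 11.9 in appetitive, the appetitive libraries lying over 4-fold apart. Rps6 (GRCm38 chr4:86854660-86857412, minus strand) had 3.38, 3.65 and 1.396 in mock and 5.03, 1.91 and 3.199 in neutral, and it was lower in both appetitive libraries than in any other library. Rpl5 had 1.31, 1.35 and 1.28 in mock, 4.196, 0.901 and 3.53 in neutral, 0.1501 and 1.82 in aversive and 7.35 and 1.41 in appetitive cells, with appetitive 1 the highest; in unscaled CPM neutral 1 was (4.43, against 3.53). Rps27a had 3.403 and 4.13 in aversive and 11.9 and 6.02 in appetitive, every one of them above the mock libraries on the TMM scale. In unscaled CPM aversive 1 (2.504) lay under mock 3 (4.19).

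The 9 paralogs and other proteins are described apart from the core genes. Rps27l, a paralog of Rps27 induced by p53, had 26.6, 44.01 and 22.4 in mock, 102, 43.7 and 97.3 in neutral, 38.3 and 28.7 in aversive and 79.1 and 126 in appetitive cells. Rps27 had 1.99, 7.92 and 1.78 in mock, 8.64, 1.06 and 1.38 in neutral, 5.505 and 3.17 in aversive and 0 and 4.45 in appetitive cells. Rps27l had the higher level per kilobase, at 74.7 against 3.44 CPM per kb over the 10 libraries. Rpl7l1, a homolog of Rpl7 in the assembly of the large subunit, had 39.8, 47.03 and 42.9 in mock, 44.1, 72.95 and 89.9 in neutral, 47.1 and 47.7 in aversive and 20.7 and 114 in appetitive cells. Rpl7 had 28.03, 27.9 and 19.4 in mock, 34.04, 20.1 and 27.6 in neutral, 33.4 and 35.9 in aversive and 51.5 and 31.9 in appetitive cells. Appetitive 1 was the lowest library for Rpl7l1 on both scales. It was the highest for Rpl7 on the TMM scale only: in unscaled CPM it had 24.7, and aversive 3 was the highest at 45.7. Rps19bp1 had 45.9, 20.6 and 28.8 in neutral, above every mock library. Rps19 had 51.2, 60.6 and 15.6 in mock, 40.2, 15.5 and 27.2 in neutral, 81.8 and 62.9 in aversive and 139 and 20.4 in appetitive cells. Rpl22l1 had 8.39 ± 5.695 in mock, 6.397 ± 4.34 in neutral, 11.4 ± 2.82 in aversive and 3.42 ± 0.469 in appetitive cells (mean ± SD over the libraries of a group, as for the next 3 genes). Its parent Rpl22 had 31.01 ± 10.1 in mock, 19.1 ± 4.65 in neutral, 40.5 ± 19 in aversive and 38.8 ± 45.4 in appetitive cells. Rpl36al had 3.13 ± 0.194 in mock, 7.904 ± 1.84 in neutral, 5.41 ± 1.62 in aversive and 7.33 ± 5.33 in appetitive cells. Rpl36a had 2.38 ± 0.861 in mock, 1.82 ± 0.937 in neutral, 11.3 ± 2.12 in aversive and 15.6 ± 10.1 in appetitive cells. For Rpl36a both aversive and both appetitive libraries lay above every mock and neutral library. Rps27rt, which shares 91.3% of its 40-base stretches with other loci, had at most 1.56 CPM and is uncertain. Rpl10l and Rpl3l, intronless or tissue-restricted copies of Rpl10 and Rpl3, were near the floor in most libraries. Rpl10l had a raw count of 0, 0 and 1 in mock, 0, 0 and 3 in neutral, 19 and 3 in aversive and 0 and 30 in appetitive cells. Rpl3l had a raw count of 4, 10 and 11 in mock, 0, 0 and 86 in neutral, 0 and 573 in aversive and 0 and 5 in appetitive cells, so that most of the Rpl3l counts came from aversive 3. Rpl39l had at most 29 counts in any library and was not tested. Its parent Rpl39 had 10.99, 8.02 and 4.602 in mock, 6.07, 1.89 and 3.07 in neutral, 14.9 and 17.9 in aversive and 19.5 and 13.6 in appetitive cells. Rpl3 and Rpl10 had 23.3 ± 25.8 and 3.75 ± 5.31 in appetitive (mean ± SD).

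Other genes of translation were read from the same test, and the shares of all tested genes given for each comparison are the background of their counts too. Over the 6 comparisons together, 4.56% of all tests had a higher and 14.7% a lower value at an unadjusted p under 0.05, and DESeq2 called 4.19% higher and 13.9% lower. Medians of log2 fold changes are given for aversive and appetitive against neutral and then for aversive and appetitive against mock; over the 85 ribosomal protein genes these were 0.94, 1.01, 0.84 and 0.88. Rack1, a scaffold protein of the small subunit outside the symbol rule, had 54.3, 66.04 and 54.6 in mock, 126, 85.2 and 95.2 in neutral, 71.01 and 127 in aversive and 103 and 119 in appetitive cells. Over the 17 elongation factors and their partners, the medians were 0.72, 0.69, 0.35 and 0.59; edgeR made 0 calls over the 6 comparisons, beside 5 higher and 9 lower values at an unadjusted p under 0.05 and 7 higher and 8 lower calls by DESeq2. For the 44 initiation factors, which bring the small subunit to the message, the medians were -0.10, 0.55, -0.05 and 0.48, and edgeR made 0 calls over the 6 comparisons, beside 11 higher and 14 lower values at an unadjusted p under 0.05 and 11 higher and 11 lower calls by DESeq2. For the 31 tested regulators of mTOR and TOP messages they were -0.12, -0.54, 0.47 and 0.55, and edgeR made 0 calls over the 6 comparisons, beside 10 higher and 13 lower values at an unadjusted p under 0.05 and 4 higher and 15 lower calls by DESeq2. The 9 noncoding host genes whose transcripts begin with a TOP tract had medians of 2.41, 1.47, 1.43 and 1.39. In neutral against mock their median was -1.11, with 3 of 9 positive. Over the 6 comparisons edgeR made 1 call, beside 10 higher and 0 lower values at an unadjusted p under 0.05. DESeq2 made 9 higher and 0 lower calls. Snhg20 rose in appetitive against mock (log2 fold change 3.09 ± 0.69 (SE), adjusted p = 0.0494), where 1.98% of all tested genes were called. Its levels in CPM were 18.5, 24.6 and 15.3 in mock, 241, 96.5 and 183 in neutral, 102 and 196 in aversive and 123 and 208 in appetitive cells, so that the neutral and aversive libraries also lay above every mock library. Snhg5 had 17.8, 27.8 and 8.87 in mock, 6.09, 3.03 and 10.7 in neutral, 53.1 and 26.9 in aversive and 52.2 and 127 in appetitive cells (adjusted p = 0.194 in appetitive against mock). Of 82 ribosome biogenesis factors, 1 was called higher and 11 lower in appetitive against neutral (6.17% of all tested genes), 1 higher and 4 lower against aversive (1.8%), and 5 lower against mock (1.98%). The counts at an unadjusted p under 0.05 were 3 higher and 23 lower against neutral, 5 higher and 19 lower against aversive and 4 higher and 25 lower against mock, and DESeq2 called 29, 26 and 28. In the 3 comparisons without appetitive cells edgeR called 0, beside 9 at an unadjusted p under 0.05 and 9 by DESeq2 for aversive against neutral, 7 and 7 for aversive against mock, and 0 and 0 for neutral against mock. Znhit3, a box C/D snoRNP assembly factor, had a raw count of 309, 378 and 776 in mock, 849, 2277 and 1024 in neutral, 563 and 1513 in aversive and 0 and 1 in appetitive cells. It was called lower in appetitive against neutral (adjusted p = 0.0221), aversive (adjusted p = 0.0325) and mock (adjusted p = 0.0367). Taf1b, of the RNA polymerase I factor SL1, had a raw count of 384, 397 and 1220 in mock, 1942, 2195 and 1126 in neutral, 551 and 758 in aversive and 1 and 0 in appetitive cells (adjusted p = 0.0228 in appetitive against neutral). Nop2, a ribosomal RNA methyltransferase, had 383, 265 and 2112 in mock, 1698, 804 and 1486 in neutral, 667 and 936 in aversive and 1 and 1 in appetitive cells (adjusted p = 0.0358 in appetitive against mock). Both were near 0 in both appetitive libraries. Nufip1, another snoRNP assembly factor, had levels in CPM of 7.17, 15.8 and 12.4 in mock, 8.39, 7.13 and 5.54 in neutral, 0.2002 and 0.341 in aversive and 95.3 and 101 in appetitive cells (log2 fold change 8.47 ± 1.41 (SE), adjusted p = 0.0253 in appetitive against aversive). Over the 78 mitochondrial ribosomal protein genes the medians were -0.31, -0.23, 0.64 and 0.98, and in neutral against mock 1.08, where 74 of 78 were positive. In that comparison edgeR called 0, beside 10 at an unadjusted p under 0.05 and 5 by DESeq2. It also called 0 in aversive against neutral, beside 5 and 4 by these measures, and 0 in aversive against mock, beside 3 and 2. In appetitive 4 were called lower against neutral (6.17% of all tested genes), 1 against aversive (1.8%) and 1 against mock (1.98%). Against neutral, 1 was higher (7.46% of all tested genes) and 7 lower (21.8%) at an unadjusted p under 0.05, and DESeq2 called 8 (28.0%). Against aversive, 1 was higher (4.12% of all tested genes) and 4 lower (15.8%) at that p, and DESeq2 called 7 (24.0%). Against mock, 8 were higher (2.79% of all tested genes) and 5 lower (21.0%) at that p, and DESeq2 called 17 (25.7%). Mrps27 had a raw count of 351, 233 and 803 in mock, 1479, 2237 and 1572 in neutral, 2 and 3 in aversive and 0 and 1 in appetitive cells, so that it was near 0 in aversive as well as in appetitive. Its adjusted p was 0.0228 in appetitive against neutral and 0.0422 against mock. Mrps30 had 423, 330 and 960 in mock, 1140, 5270 and 2833 in neutral, 341 and 2593 in aversive and 2 and 0 in appetitive cells (adjusted p = 0.0428 in appetitive against aversive and 0.0255 against neutral). The second gene by p in appetitive against aversive, Mrpl47, did not pass (adjusted p = 0.0743). Over 77 nuclear genes of the respiratory chain, other short housekeeping messages, the medians were -0.17, -0.07, 0.87 and 1.20. They were near 0 against neutral, where those of the ribosomal protein genes were near 1, and edgeR made 0 calls over the 6 comparisons, beside 43 higher and 9 lower values at an unadjusted p under 0.05 and 5 higher and 7 lower calls by DESeq2. Of the 43 higher values 26 were in neutral against mock, where 3.72% of all tested genes were higher; there the median was 0.98, with 69 of 77 positive. Noncoding RNAs kept in the nucleus (11 genes, led by Malat1) took 0.0593, 0.128 and 0.1804% in mock, 0.519, 0.754 and 0.508% in neutral, 0.191 and 1.24% in aversive and 0.136 and 0.962% in appetitive cells, out of all counts. Their medians were 1.94, -0.87, 2.70 and 1.11, and edgeR made 0 calls over the 6 comparisons, beside 9 higher and 5 lower values at an unadjusted p under 0.05 and 3 higher and 7 lower calls by DESeq2, with 4 of the higher values in aversive against neutral (8.28% of all tested genes). Genes encoded in mitochondria took 3.98, 4.63 and 2.75% in mock, 10.5, 3.01 and 4.09% in neutral, 7.46 and 14.8% in aversive and 7.997 and 2.13% in appetitive cells. The part of these in the values of the ribosomal protein genes was not tested.

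The annotated starts of the genes were read for the TOP letters, since the members shared a direction in several comparisons and these letters are a known feature of the family. Of the 86 genes, 66 matched a RefSeq start (GRCm38.p6). A start with C followed by 4 bases that are each C or T was found in 14 of the 66 (21.2%), 13 of them among the 57 core genes matched (22.8%), against 3.01% of all 27025 genes of the table. Only the annotated base was read, so a tract that begins a few bases away was not counted. Core genes were also divided at their median shared percentage of 40-base stretches. The median log2 fold change of the 39 genes at or under it and of the 38 above it was 1.04 and 0.56 in aversive against neutral, 1.10 and 0.80 in appetitive against neutral, 0.84 and 0.85 in aversive against mock and 0.88 and 0.92 in appetitive against mock. It differed in sign in the others, at 0.06 and -0.02 in appetitive against aversive and -0.41 and 0.08 in neutral against mock. For the TOP letters, the median log2 fold change of the 13 core genes with the letters and of the 44 without was 1.12 and 0.93 in aversive against neutral and 0.99 and 1.06 in appetitive against neutral. It was 1.00 and 0.89 in aversive against mock and 0.90 and 0.89 in appetitive against mock. In appetitive against aversive it was -0.13 (4 of 13 positive) and 0.12 (27 of 44), and in neutral against mock -0.12 and -0.40. The sequences of 4 genes with the letters that are described above show the tract; they run from 10 bases before the annotated start to the 15 bases from it on, 5′ to 3′ on the gene's strand, with the 5 letters from the start on in capitals:
Rps6 (chr4:86857353-86857377, minus strand): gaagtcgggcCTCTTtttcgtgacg
Rps21 (chr2:180257369-180257393, plus strand): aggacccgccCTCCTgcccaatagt
Rplp2 (chr7:141447641-141447665, plus strand): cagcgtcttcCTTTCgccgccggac
Rps27 (chr3:90213634-90213658, minus strand): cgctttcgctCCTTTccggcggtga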

How the data were processed

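Raw counts for 53379 Ensembl genes in 10 libraries were deposited. To make these counts the authors took the leading 40 bp of the reads, aligned these to mm10 (STAR) and assigned them to genes without regard to strand (featureCounts, Subread). Tool versions and the treatment of reads with several matches are not given in the sources used here. Genes were matched to GENCODE M21 (GRCm38), which held 53274 of the identifiers.

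In R 4.3.3, 1 quasi-likelihood model of 4 groups was fitted to all 10 libraries with edgeR 4.0.16, after TMM scaling (factors 0.480 to 1.45) and filterByExpr, which kept 19754 genes. The common dispersion was 1.49, a coefficient of variation of 122%. P-values are two-sided and adjusted by the Benjamini-Hochberg method over all tested genes, and a gene was called under 0.05. The edgeR step was tested only on data simulated with a lower dispersion than the one fitted here. Its behaviour at the observed spread was not tested. CPM were computed from the deposited counts on the normalized library sizes; 3 counts were taken as the floor of a library.

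Alternatives were other scalings, other filters on low counts, DESeq2 1.42.0, fits to the compared groups, a replicate block and each library left out. The members and gene lists were chosen with earlier results of these data known. Genes named were the paralogs with their parents, the stalk genes, Rpsa, Rps6, Rpl5, Rpl11 and Rps27a, the 3 highest members and 3 lowest core genes per kilobase, the 3 members with the smallest p in each direction of each comparison, and the 2 genes with the smallest p of each other list in a comparison where any of it passed; further genes named were chosen after their values were seen. Some items are not reported here.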

Additional observations from a re-analysis of the deposited data

How the results depend on the processing

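In edgeR, 0 members were called in all 6 comparisons with DESeq2 size factors, with library size alone, with TMM factors computed without the ribosomal protein genes, and in the fits to only the compared groups. With no filter on low counts 1 of 86 members was called in appetitive against neutral (Rps3), beside 7.19% of all genes. Over genes with at least 10 counts in every library 1 of 66 was called there (3.43% of all genes) and 1 in neutral against mock (1.09%), in both cases Rpl11. DESeq2's Wald test called 4 members in aversive against neutral (15.7% of all genes with an adjusted p), 10 in appetitive against neutral (28.0%), 2 in appetitive against aversive (24.0%), 0 in aversive against mock (7.95%), 5 in appetitive against mock (25.7%) and 2 in neutral against mock (7.64%). In each the share of the members was under that of all genes. The cause of the difference from edgeR was not tested. With 1 library left out, 0 to 5 members were called in appetitive against neutral (5 without appetitive 2, beside 9.31% of all genes) and 0 in the other comparisons. Where this left 1 library in a group, that library was assumed to vary like the other groups.

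Same-numbered libraries of different groups had deviations from their group means correlated at -0.04 to 0.16 over all tested genes and at -0.14 to 0.21 over the members, so the numbers were not read as pairs. With a replicate block on all 10 libraries 0 members were called in each comparison, and the medians were 0.76 and 0.77 for aversive and appetitive against neutral, -0.19 for appetitive against aversive, 0.66 and 0.56 for aversive and appetitive against mock and -0.21 for neutral against mock. With the block fitted to the compared groups only, 0 were called too, and the medians were 0.84, 0.84, 1.26, 0.29 and -0.50 in these comparisons without appetitive against aversive, beside 1.17, 1.04, 0.94, 0.94 and -0.30 in the same fits with no block. The block could not be fitted to the aversive and appetitive libraries alone, which share 1 number.

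With the 20 highest genes left out of the total, the members had a mean share of 0.310% in mock, 0.240% in neutral, 0.457% in aversive and 0.453% in appetitive cells. Leaving out mt- genes, taking the core genes alone or adding pseudogenes moved each mean by less than 1 SD. Without the 4 libraries in which Mbp took over 20% of counts, chosen after seeing the data, 0 members were called and the medians were 0.76, -0.09 and -0.99 in aversive and appetitive against neutral and appetitive against aversive, and 1.50, 0.52 and 0.57 in aversive, appetitive and neutral against mock.

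With 2 or 3 libraries a group, a missing call does not show equal levels. Cell makeup differed between libraries of a group, kit and neutral group cannot be told apart, and copies of these genes elsewhere in the genome leave single levels uncertain.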
